A study of Mus musculus with 4 samples.

Results

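MAPK phosphatases of the Dusp family, the Sprouty genes and Phlda1 were followed in basal epidermal cells that carry an active Hedgehog signal, with and without the transcription factor Sox9. The members were 10 genes (Dusp1, Dusp2, Dusp4, Dusp5, Dusp6, Dusp10, Spry1, Spry2, Spry4 and Phlda1), taken by gene symbol from the probe annotation. They were read by 15 of the 45101 probe sets on an Affymetrix 3' expression array, and all 10 were among the 18193 genes measured. Cells came from tail epidermis of mice with K14CreER, a tamoxifen-dependent Cre recombinase driven by the promoter of the basal keratin gene Krt14, and SmoM2, a constitutively active form of the Hedgehog transducer Smoothened. The SmoM2 group (2 arrays) kept Sox9, and the Sox9cKO group (2 arrays) carried SmoM2 with a conditional knock-out of Sox9. Both groups expressed SmoM2, so the comparison says nothing of SmoM2 itself. Tamoxifen was given at 2.5 mg for 10 days in a row, and the sort, 9 weeks after the start, took CD34-negative cells with integrin alpha 6 on their surface. The sources used here do not give age, strain or the number of animals behind each replicate. P-values therefore measure only the spread between these samples. The 2 arrays of each group differed in signal from the Y chromosome (given below), so they did not come from the same 1 animal. What part of the spread is technical is not known.

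The Ras-ERK cascade carries signals of receptor tyrosine kinases such as the EGF and FGF receptors to the nucleus, and it induces its own inhibitors. Dual-specificity phosphatases (the Dusp products studied here) remove phosphate from the activation loop of MAP kinases, either in the nucleus or in the cytoplasm, and differ in their choice of ERK, JNK or p38. Sprouty proteins act higher up, between the receptor and Ras or Raf. Because many of these genes are transcribed in response to ERK activity, their transcripts are widely used as a readout of the pathway. In epidermis, EGF receptor and ERK signalling support proliferation of basal keratinocytes, and FGF signalling takes part in hair follicle growth.

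Promoter sequence is shown for Dusp2 and Dusp5, the called members with an entry among the RefSeq promoters (build GRCm38.p6), and for Dusp1, an immediate early gene of the same class. Of the 10 members, 7 had an entry and Dusp4, Spry4 and Phlda1 had none. Each run holds the 250 bases before the annotated start, 5′ to 3′ on the gene's strand, with motif matches in capitals.
Dusp1, chr17:26508473-26508722, minus strand: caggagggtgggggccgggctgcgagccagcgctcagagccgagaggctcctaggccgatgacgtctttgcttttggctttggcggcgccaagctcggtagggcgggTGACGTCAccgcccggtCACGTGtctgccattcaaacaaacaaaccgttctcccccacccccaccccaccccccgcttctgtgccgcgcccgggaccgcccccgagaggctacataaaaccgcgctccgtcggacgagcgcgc
Dusp2, chr2:127335909-127336158, plus strand: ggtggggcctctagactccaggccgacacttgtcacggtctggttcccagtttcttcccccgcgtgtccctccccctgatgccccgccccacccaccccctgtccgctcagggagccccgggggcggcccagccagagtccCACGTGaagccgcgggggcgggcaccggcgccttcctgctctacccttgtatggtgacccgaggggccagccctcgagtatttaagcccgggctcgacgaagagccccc
Dusp5, chr19:53528895-53529144, plus strand: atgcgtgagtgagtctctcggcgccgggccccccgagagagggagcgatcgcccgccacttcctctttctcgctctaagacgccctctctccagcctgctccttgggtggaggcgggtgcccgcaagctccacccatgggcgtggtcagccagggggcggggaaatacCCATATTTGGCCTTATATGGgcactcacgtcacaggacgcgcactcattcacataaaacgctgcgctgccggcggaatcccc
Both strands were searched for the cyclic AMP response element CRE (TGACGTCA), an ETS factor motif (CCGGAAGT), a GLI factor motif (GACCACCCA), the AP-1 motif (TGANTCA) and a SOX factor motif (AACAATG). The CArG box, to which serum response factor binds, and the E-box (CACGTG) were added after the sequences had been seen, and no motif overlaps another in these runs. Dusp1 held a CRE match from base -143 to -136, counted from the annotated start, and 1.55% of all 32851 promoter windows of this length hold 1. Dusp5 held CArG boxes from -82 to -73 and from -72 to -63, and 1.47% of windows hold at least 1. An E-box stood at -126 to -121 in Dusp1 and at -109 to -104 in Dusp2, against 6.02% of windows. The member windows not printed (Dusp6, Dusp10, Spry1 and Spry2) had no match to the CRE, the CArG box or the E-box. None of the 7 member windows had a match to the AP-1, ETS, SOX or GLI motif, which stood in 6.75%, 2.88%, 3.29% and 0.225% of all windows. A TATA motif and 1 exact form of the serum response element were also searched, matched none of the 7 windows, and were left out of the list after that was seen. These matches describe letters only, and binding was not measured.

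Array medians lay between 5.45 and 5.48 on the log2 scale and lower quartiles between 4.25 and 4.29. Of the markers behind the labelled cell type, the basal keratin genes Krt5 and Krt14 read 13.15 to 13.76 on all arrays, Krt14 being lower in both Sox9cKO arrays. Itga6, the gene of the integrin sorted for, read 11.42 and 11.77 in SmoM2 and 11.14 and 11.15 in Sox9cKO (log2 change -0.45, limma adjusted p = 0.192). Cd34, the marker sorted against, read 3.75 to 4.15. Sox9, the deleted gene, had 3 probe sets, all lower in both Sox9cKO arrays. The one with the highest mean over the arrays, which stands for the gene, read 8.77 and 9.27 in SmoM2 and 8.06 and 8.48 in Sox9cKO and did not pass (log2 change -0.75, limma adjusted p = 0.108). Another read 10.21 and 10.02 against 6.75 and 5.70 and passed among all probe sets (log2 change -3.89, adjusted p = 0.00171), and the dimmest did not (adjusted p = 0.309). Where these probes lie relative to the deletion was not analysed here. Each group held 1 array with the Y-linked transcript Eif2s3y (9.03 and 9.48) and 1 without it (3.55 and 3.62), values that show the level of an absent transcript. The 3' probe set of Actb exceeded its 5' probe set by 0.46 to 0.75, more so in replicate 1 of both groups, a measure of RNA integrity. Signals of different probe sets depend on the probes, so levels are compared only within a probe set.

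The members did not differ in 1 direction between Sox9cKO and SmoM2. Dusp2 was higher in Sox9cKO and Phlda1, Dusp4 and Dusp5 were lower (limma on all genes, adjusted p under 0.05). The other 6 members did not pass the test. A rise or a fall means only a higher or lower signal in Sox9cKO than in SmoM2. The 4 calls among 10 members stand beside a background of 6.19% of all 18193 genes called, 3.53% lower and 2.66% higher in Sox9cKO. The members were chosen with earlier results of these data known, so these shares describe them and test no enrichment. The median log2 change of the members was -0.17, against 0.02 over all genes. The arrays of the groups did not overlap for 7 members, 4 of them lower and 3 higher in Sox9cKO, where 47.9% of all genes did not overlap (21.8% lower and 26.0% higher). When every probe set was tested on its own, 3 of 15 passed (Dusp2, Dusp4 and Phlda1), against 3.82% of 45037 probe sets. The smallest p that an exact permutation of 2 arrays against 2 allows is 0.333, so each call depends on the variance limma borrows from all genes.

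**Figure D1:**
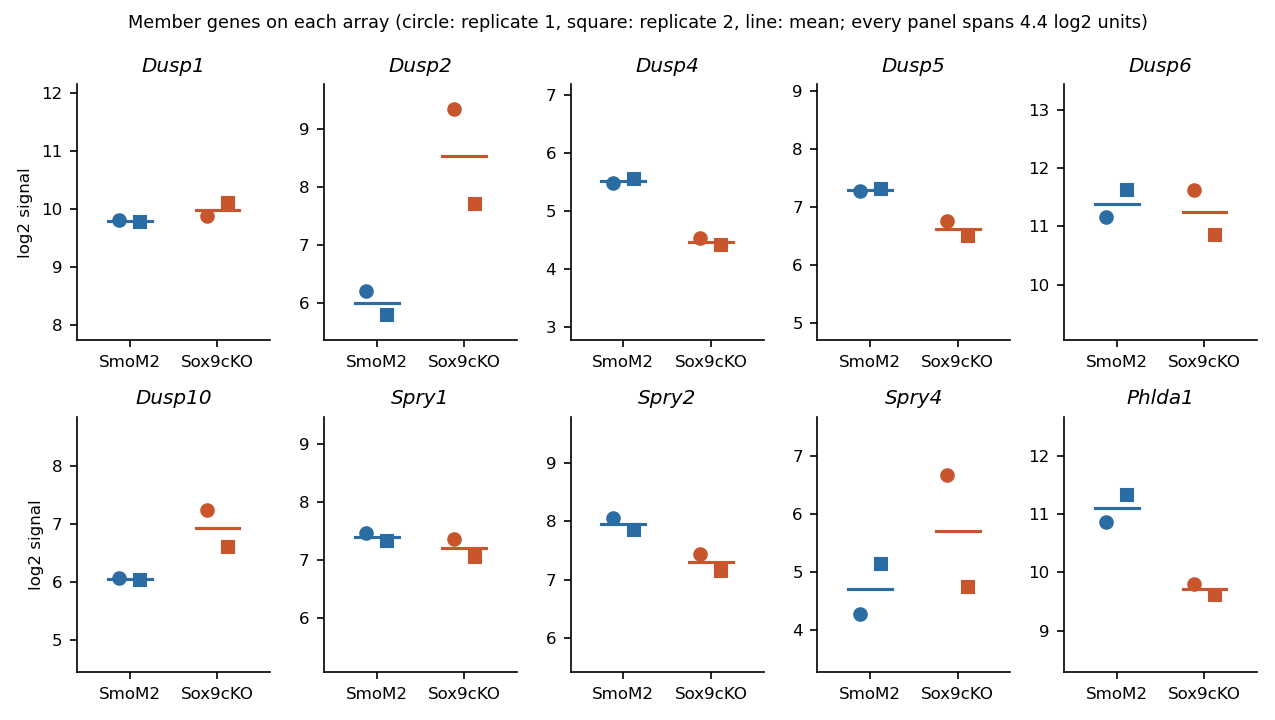
Log2 signal of the 10 members on each array, with SmoM2 in blue and Sox9cKO in orange, a circle for replicate 1, a square for replicate 2 and a line for the mean of 2 arrays. Every panel spans the same range of log2 units, centred on its own gene. Phlda1, Dusp4 and Dusp5 sat lower in both Sox9cKO arrays, Dusp2 sat higher in both with a wide gap between them, and the Dusp6 arrays of the groups overlapped.

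Among the nuclear, inducible phosphatases, Dusp2 changed most. Its product (PAC1) acts on ERK and other MAP kinases and was described first in activated lymphocytes. The Dusp2 log2 signal was 6.20 and 5.79 on the SmoM2 arrays (replicates 1 and 2, in this order throughout), and 9.34 and 7.71 on the Sox9cKO arrays. Both Sox9cKO arrays were above both SmoM2 arrays, and the Sox9cKO arrays lay far from each other. The rise was 2.53 on the log2 scale (SE 0.46, 95% confidence interval 1.44 to 3.62), a 5.77-fold difference (limma adjusted p = 0.0217). Without Sox9cKO replicate 1 it was 1.72 and without replicate 2 it was 3.34. The call was lost without SmoM2 replicate 1 or 2 (adjusted p = 0.0996 and 0.154) and with a robust prior and intensity trend (adjusted p = 0.152).

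Since Dusp2 is known from lymphoid cells, markers of immune cells are given beside it. Of 5 measured T cell markers, Thy1 rose (5.26 and 4.99 in SmoM2, 7.01 and 7.22 in Sox9cKO, adjusted p = 0.000831) and 4 did not pass. The mean of the list, Thy1 included, was 4.62 and 4.56 in SmoM2 and 5.02 and 5.17 in Sox9cKO. Thy1 had a log2 change of 1.99, and the other 4 had changes of 0.03 to 0.19. Of the defining markers, Cd3g and Cd2, with the leukocyte gene Ptprc, lay between 3.55 and 4.21 on all arrays, below the lower quartile of all probe sets. Cd3d lay above that quartile, at 4.76 and 4.61 in SmoM2 and 4.89 and 4.78 in Sox9cKO, higher in both knock-out arrays. Cd3e was at 5.37 to 5.89 and changed by 0.19 (adjusted p = 0.704). Of 6 Langerhans and myeloid markers, H2-Aa rose (log2 change 1.87, adjusted p = 0.00102) and 5 did not pass, and the mean of that list was 5.35 and 5.03 in SmoM2 against 5.76 and 5.77 in Sox9cKO. In Sox9cKO replicate 1, where Dusp2 was highest, H2-Aa read 7.22 against 7.11 in replicate 2, and Csf1r, Lyz2, Cd3d and Cd3g were also higher there, while Thy1, Cd2, Cd3e, Cd74, Cd207 and Ptprc were higher in replicate 2. The part of these cells in the Dusp2 result was not tested. In sorted bulk cells, more cells of a type and more RNA per cell cannot be told apart.

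The genes whose pattern over the 4 arrays lay nearest to that of Dusp2 were Prdm8, Cnn3 and Krt28. Their Euclidean distances on the log2 scale, after centring each gene on its SmoM2 mean, were 0.25, 0.32 and 0.33. Krt28, a keratin of the inner root sheath, read 5.02 and 4.49 in SmoM2 and 8.20 and 6.77 in Sox9cKO, with replicate 1 the higher in each group, as for Dusp2. Prdm8, a zinc finger protein gene, read 4.33 and 4.10 against 7.36 and 6.00, and Cnn3, which encodes an actin-binding calponin, 8.42 and 8.11 against 11.38 and 9.77. With 4 arrays, nearness of pattern is a description only.

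Dusp4 and Dusp5 went the other way from Dusp2. Dusp4 encodes a nuclear phosphatase that is induced by ERK signalling. Its log2 signal was 5.48 and 5.54 in SmoM2 and 4.54 and 4.41 in Sox9cKO. Replicates lay close together and the groups were well apart. Dusp4 fell by 1.04 on the log2 scale (SE 0.14, interval -1.36 to -0.72), a 2.05-fold difference (limma adjusted p = 0.00548). Its Sox9cKO signal lay near the lower quartile of all probe sets, so the size of the fall is not exact. In the fit of every probe set, Dusp4 had adjusted p = 0.0102, and 0.0547 and 0.0571 without SmoM2 replicate 2 or Sox9cKO replicate 2.

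Dusp5, a nuclear phosphatase specific for ERK, read 7.27 and 7.31 in SmoM2 and 6.75 and 6.50 in Sox9cKO. Again the groups did not overlap, with a gap between them wider than that between replicates. The fall was 0.66 (SE 0.15, interval -1.01 to -0.32), 1.58-fold, and it passed narrowly (limma adjusted p = 0.0449). It missed the threshold in the fit of every probe set (adjusted p = 0.0687), with quantile normalization (0.0516), with median centring (0.0504), with an intensity trend and robust prior (0.0546) and with any 1 array left out (0.0569 to 0.192). Dusp1, the immediate early phosphatase that acts on p38, JNK and ERK, read 9.81 and 9.78 in SmoM2 and 9.88 and 10.10 in Sox9cKO. Although its arrays did not overlap, the difference was small, at 0.19 (interval -0.14 to 0.53, adjusted p = 0.576).

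The cytoplasmic, ERK-specific phosphatase Dusp6, among the most used transcript readouts of FGF and ERK signalling, showed no difference between the groups beyond its spread. It read 11.15 and 11.63 in SmoM2 and 11.63 and 10.86 in Sox9cKO. The highest and lowest values of a group lay further apart than the group means. The change was -0.15 (SE 0.27, adjusted p = 0.852), with an interval from -0.79 to 0.49 that allows a change of either sign. It was 0.24 without Sox9cKO replicate 2 and -0.54 without Sox9cKO replicate 1.

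Dusp10, whose product prefers JNK and p38 over ERK, was read by 2 probe sets. The brighter probe set gave 6.08 and 6.04 in SmoM2 and 7.25 and 6.61 in Sox9cKO, higher in both knock-out arrays. The difference of 0.87 (SE 0.21, interval 0.37 to 1.37) missed the threshold (adjusted p = 0.0642). It was 1.19 and passed without Sox9cKO replicate 2 (adjusted p = 0.0103), and was 0.55 without Sox9cKO replicate 1 (adjusted p = 0.176). The other Dusp10 probe set was dim, between 3.76 and 4.29 on all 4 arrays, with overlapping groups and a change of -0.15 (adjusted p = 0.840 over all probe sets). With the mean of both, Dusp10 was at 0.36 (adjusted p = 0.373).

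**Figure D2:**
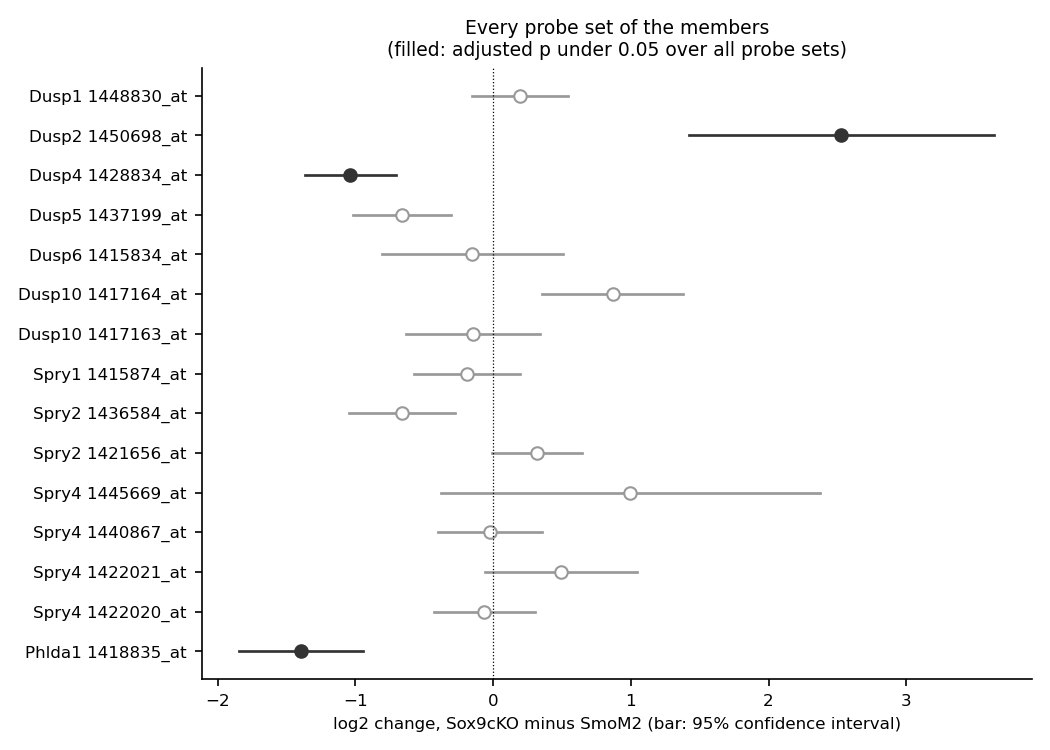
Log2 change of each of the 15 member probe sets, Sox9cKO minus SmoM2, with 95% confidence intervals from limma on all probe sets. Filled points passed an adjusted p of 0.05. The probe sets of Dusp2, Dusp4 and Phlda1 are filled, and the probe sets of Dusp10, Spry2 and Spry4 lie on both sides of 0.

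No Sprouty gene passed the test. Spry1 read 7.48 and 7.34 in SmoM2 and 7.37 and 7.06 in Sox9cKO, overlapping, with a change of -0.19 (interval -0.56 to 0.18, adjusted p = 0.634). Spry2 read 8.05 and 7.86 in SmoM2 and 7.43 and 7.15 in Sox9cKO at its brighter probe set. Both knock-out arrays were the lower there, and the change of -0.66 (SE 0.16, interval -1.03 to -0.29) narrowly missed the threshold (adjusted p = 0.0592). With dim genes left out, so that fewer genes were tested, it passed (adjusted p = 0.0480).

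The 2 probe sets of Spry2 disagreed. The dimmer read 5.08 and 5.01 in SmoM2 and 5.41 and 5.32 in Sox9cKO, higher in both knock-out arrays by 0.32 (adjusted p = 0.354 over all probe sets). With their mean, Spry2 was at -0.17 (adjusted p = 0.579), so its direction is uncertain. Which transcript forms each probe set reads was not analysed here.

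Spry4 was dim at each of its 4 probe sets. The one that stands for the gene read 4.27 and 5.14 in SmoM2 and 6.67 and 4.74 in Sox9cKO. Sox9cKO replicate 1 was far above the other 3 arrays, and Sox9cKO replicate 2 lay between the SmoM2 arrays. The change was 1.00 (SE 0.57, interval -0.35 to 2.34, adjusted p = 0.445). It was 1.96 without Sox9cKO replicate 2 (adjusted p = 0.0165) and 0.03 without Sox9cKO replicate 1 (adjusted p = 0.983), so that array decides the value. The other Spry4 probe sets were each highest in Sox9cKO replicate 1 as well. At 1 of them that array read 5.17, against 4.53 in replicate 2 and 4.51 and 4.20 in SmoM2. This probe set changed by 0.49 (adjusted p = 0.402). The remaining probe sets, where that array led by less, changed by -0.02 and -0.06.

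Phlda1 had the largest fall among the members. It encodes a pleckstrin homology-like protein, is induced by growth factor and ERK signalling, and is known as a marker of hair follicle stem cells. Phlda1 read 10.87 and 11.34 in SmoM2 and 9.81 and 9.62 in Sox9cKO. The gap between the groups was wider than the spread within either. It fell by 1.39 on the log2 scale (SE 0.19, interval -1.83 to -0.96), a 2.63-fold difference (limma adjusted p = 0.00587), and passed under all 11 alternatives tried for genes (adjusted p from 0.000304 to 0.0363). In the fit of every probe set its adjusted p was 0.0106, and 0.0536 without Sox9cKO replicate 2. Its relatives Phlda2, at -0.76 (adjusted p = 0.0851), and Phlda3, at -0.42 (adjusted p = 0.394), did not pass.

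The Sox9cKO arrays differed from each other in the members. Of the 10 members, 9 were higher in Sox9cKO replicate 1 than in replicate 2, Dusp1 being the exception, where 46.7% of all genes were higher in replicate 1. In SmoM2, 5 of 10 were higher in replicate 1, against 53.0% of all genes. The gap between the Sox9cKO arrays was 1.93 for Spry4, 1.63 for Dusp2, 0.77 for Dusp6 and 0.64 for Dusp10, and 0.126%, 0.220%, 2.24% and 3.72% of all genes had a gap at least as large. The median gap over all genes was 0.15 in Sox9cKO and 0.16 in SmoM2. Sox9cKO replicate 1 was the array with Y-linked signal in its group, and the part of the animal's sex or of RNA quality in these gaps was not tested.

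**Figure D3:**
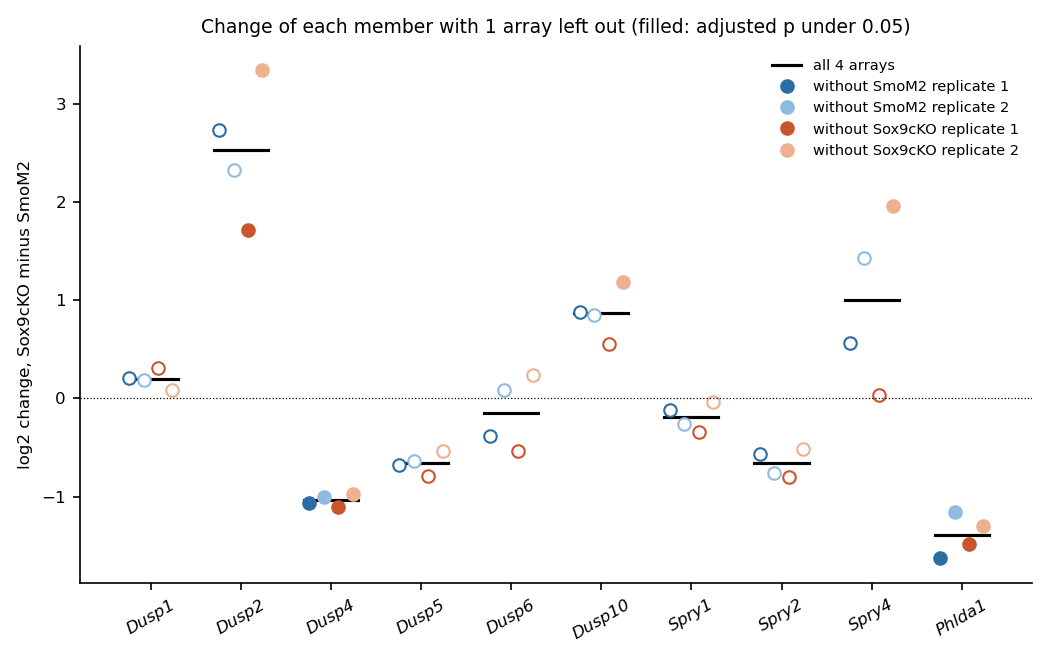
Log2 change of each member, Sox9cKO minus SmoM2, with all 4 arrays (black line) and with each array left out in turn (points, filled where the adjusted p was under 0.05). Phlda1 and Dusp4 stay filled and close to their lines, while Dusp2 and Spry4 move widely with the Sox9cKO array left out.

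The rest of the pathway was read through 7 lists, which held 122 genes beside the members, 113 of them measured. Of these, 5 rose and 6 fell, together 9.73%, beside the 6.19% of all genes. The lists too were chosen with earlier results of these data known, so these shares test no enrichment. Among 14 other dual-specificity phosphatases 1 fell, none rose, and the median change was -0.08. The gene that fell was Dusp3, a small phosphatase without a MAP kinase binding domain, from 7.07 and 7.04 in SmoM2 to 6.51 and 6.29 in Sox9cKO (log2 change -0.65, SE 0.14, adjusted p = 0.0433). Dusp3 missed the threshold with any 1 array left out (adjusted p = 0.0634 to 0.185), with quantile normalization (0.0541) and with an intensity trend and robust prior (0.0575), and averaging its 3 probe sets gave -0.29 (adjusted p = 0.318).

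Among 16 other feedback regulators 1 fell, none rose, and the median was 0.07. Lrig1, a membrane protein that promotes degradation of EGF receptors, read 9.83 and 10.15 in SmoM2 and 8.55 and 8.22 in Sox9cKO, a change of -1.61 (adjusted p = 0.00282). A further probe set of Lrig1 changed by -1.67 (adjusted p = 0.00532 over all probe sets), while a dim one changed by 0.35 (adjusted p = 0.299), and the mean of the probe sets gave -0.98. The Sprouty-related Spred1 and Spred2 changed by -0.02 and 0.17, and the EGF receptor inhibitor Errfi1 by 0.10, with adjusted p from 0.677 to 0.968. Pebp1, a Raf inhibitor, was at 0.16 (adjusted p = 0.670) by its brighter probe set, but at -0.80 (adjusted p = 0.0210) when _x_at and _s_at probe sets were left out.

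Ligands and receptors are given next. Of 13 measured EGF receptor and FGF ligands, 2 fell and none rose (median -0.04). The EGF receptor ligand Hbegf read 10.42 and 10.79 in SmoM2 and 9.22 and 9.17 in Sox9cKO, a change of -1.41 (SE 0.16, adjusted p = 0.00319). Fgf1 read 5.87 and 5.88 against 4.81 and 4.57, a change of -1.19 (adjusted p = 0.00398). Its dimmer probe sets changed by -0.59 and -0.63 and did not pass (adjusted p = 0.0763 and 0.149 over all probe sets). Of 20 measured genes of the receptors and the Ras-ERK cascade, 2 rose and none fell. Their median was 0.23 and 14 were positive, beside 9774 of all 18193 genes. The keratinocyte FGF receptor gene Fgfr2 read 9.37 and 9.70 in SmoM2 and 10.64 and 11.05 in Sox9cKO, a change of 1.31 (adjusted p = 0.00819), and all 3 of its probe sets passed on their own. Igf1r, the IGF receptor gene, changed by 1.08 (adjusted p = 0.00658). Its other probe sets changed by 0.78 to 1.10, and only that at 1.10 passed on its own (adjusted p = 0.0148 over all probe sets). With SmoM2 replicate 1 left out Fgfr2 had adjusted p = 0.0656, and Igf1r had 0.0525, or 0.0524 with SmoM2 replicate 2 left out. Egfr changed by 0.29 (adjusted p = 0.425).

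Of 14 measured JNK and p38 cascade genes, 1 rose and none fell. Map3k1, a kinase upstream of JNK, changed by 0.86 (adjusted p = 0.0267), and lost its call without SmoM2 replicate 1 or 2 (adjusted p = 0.108 and 0.154) and without Sox9cKO replicate 1 (0.100). Of 14 measured genes of ERK output beside Phlda1, 1 fell and none rose. Their median was -0.35 and 10 were negative, beside 8419 of all 18193 genes. Myc, the growth regulator, changed by -0.61 (SE 0.13, adjusted p = 0.0424), and missed the threshold with any 1 array left out (adjusted p = 0.126 to 0.188). Of the ETS factor genes that FGF and ERK signalling induces, Etv4 was at 0.26 (adjusted p = 0.697) and Etv5 at -0.55 (adjusted p = 0.361). The AP-1 gene Fosl1 was at -0.88 (adjusted p = 0.0660), at -1.22 without SmoM2 replicate 1 (adjusted p = 0.0240) and at -0.55 without SmoM2 replicate 2 (adjusted p = 0.200).

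**Figure D4:**
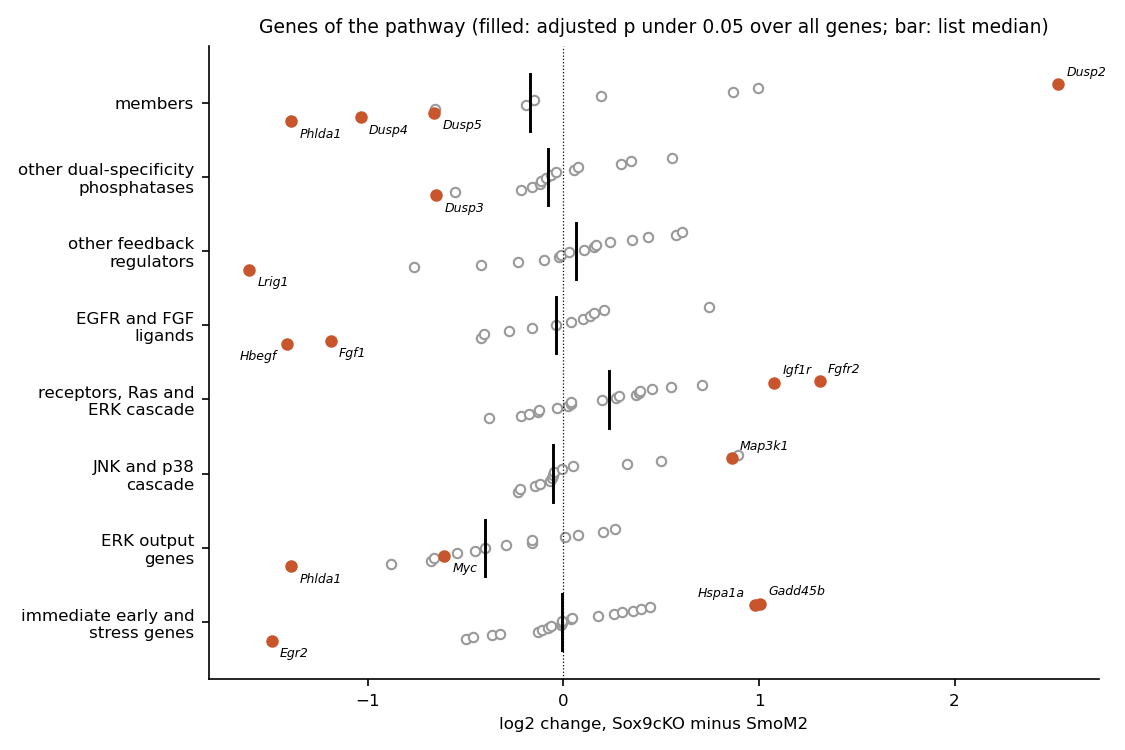
Log2 change, Sox9cKO minus SmoM2, of every measured gene of the 8 lists. Filled points passed an adjusted p of 0.05 over all genes and are named, and black bars mark list medians. Phlda1 stands both among the members and among the ERK output genes. Called genes lie on both sides of 0, with Hbegf, Fgf1 and Lrig1 low and Fgfr2 and Igf1r high.

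Cell dissociation and sorting can induce immediate early genes, so 22 such and heat shock genes are given beside the members. Of these 2 rose, 1 fell, and the median change was -0.01. Fos read 11.92 and 12.02 in SmoM2 and 11.96 and 12.07 in Sox9cKO, and Egr1 12.45 and 12.25 against 12.50 and 12.18, with changes of 0.04 and -0.01 (adjusted p = 0.920 and 0.988). The heat shock gene Hspa1a rose from 9.16 and 9.58 to 10.20 and 10.50 (log2 change 0.98, adjusted p = 0.0274), a call lost without SmoM2 replicate 1 (adjusted p = 0.142) and without Sox9cKO replicate 2 (0.105). Gadd45b, a stress gene, changed by 1.01 (adjusted p = 0.0111), with adjusted p = 0.0818 and 0.0649 without SmoM2 replicate 1 or 2. The zinc finger factor gene Egr2 fell, from 10.84 and 10.58 to 9.24 and 9.20 (log2 change -1.49, adjusted p = 0.00179).

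Markers of other layers are set beside these results. Of 5 suprabasal markers 2 rose (Lor and Flg, adjusted p = 0.00135 and 0.0235), and the list mean was 9.21 and 8.70 in SmoM2 against 9.82 and 10.04 in Sox9cKO. Of 7 interfollicular basal markers none passed, with a median change of -0.45 and list means of 11.52 and 11.93 against 11.22 and 11.39. In 5 of the 7 both Sox9cKO arrays lay below both SmoM2 arrays, which held for 21.8% of all genes. Of 5 bulge markers, Lhx2 rose and Nfatc1 fell (log2 changes of 0.79 and -1.04, adjusted p = 0.0238 and 0.0344). Of 5 fibroblast, 5 melanocyte and 5 endothelial markers none passed, and list medians were 0.17, 0.28 and -0.02. Of 4 Merkel cell markers Sox2 fell (log2 change -3.20, adjusted p = 0.000831), while Krt20 was at 4.03 to 4.18 on all arrays, below the lower quartile of all probe sets. The part of these layers in the changes of the members was not tested.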

How the data were processed

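Total RNA of sorted cells was labelled and hybridised to 4 Affymetrix 3' arrays, per the labels' protocols. The authors deposited log2 signals (the scale was read from their range), which were used unchanged. The submitters' processing notes name R 2.14.0, and the sources used here do not say how the arrays were normalized. Array medians and quartiles were nearly equal, so a shift common to most genes would go unseen. With arrays there is no read depth, and their number limits the precision.

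Of 45101 probe sets, 64 were controls, 34945 had 1 gene symbol and 932 several, and 9160 had no entry in the platform annotation, so they have no name here. For 34741, the entrez ID gave the current symbol. Each gene took its value from the single-symbol probe set of highest mean signal, giving 18193 genes. Groups follow the sample titles. Sox9cKO was compared with SmoM2 by limma 3.58.1 under R 4.3.3 (lmFit and eBayes, default prior, no covariate, two-sided, 7.17 degrees of freedom). Benjamini-Hochberg adjustment ran over all genes, or over all 45037 probe sets that are no controls, at a threshold of 0.05. The procedure was tested on simulated data, in which fewer genes were called (141) than here. It recovered 2% of 1.5-fold, 70% of 2-fold, 98% of 4-fold and 100% of 8-fold changes. A gene that missed the threshold may therefore still differ.

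Members and lists were chosen with earlier results of these data known. Named are every member probe set, called genes of each list up to 4 by smallest p, Egfr, Etv4, Etv5, Fosl1, Egr1 and Fos, markers and Sox9, and the 3 genes nearest in pattern to the called member of largest change. Phlda2, Phlda3, Spred1, Spred2, Errfi1 and Pebp1 were added as relatives or exceptions, some after their values were seen. Alternatives were averaging the probe sets of a gene, no _x_at and _s_at probe sets, dim genes left out, an intensity trend with a robust prior, quantile normalization, median centring, the replicate number as a block, and each array left out.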

Additional observations from a re-analysis of the deposited data

How the results depend on the processing

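Against 4 member genes called, 2 were called with an intensity trend and robust prior (Dusp4 and Phlda1), and 2 to 5 with 1 array left out. Against 3 member probe sets called, 1 to 3 were called with 1 array left out. Over all genes, 534 to 900 were called with 1 array left out, against 1126. These fits assume that the lone array of a group varies as the other group does. Dusp2 and Dusp5 lost their calls as given beside their values, Phlda1 passed under all 11 alternatives for genes, and Dusp4 under the 10 that kept it, since it was dropped with dim genes left out. No member changed sign while called. Of the other pathway genes, Pebp1 turned from 0.16 to -0.80 (adjusted p = 0.0210) without _x_at and _s_at probe sets, because another probe set then stood for it.

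Replicates share numbers 1 and 2 in the labels, but nothing there says that a number marks a shared litter or day. Arrays of the same number differed in the Y-linked Eif2s3y, at 3.62 in SmoM2 and 9.03 in Sox9cKO for replicate 1 and 9.48 and 3.55 for replicate 2. The excess of the 3' over the 5' probe set of Actb was alike within a number, at 0.74 and 0.75 for replicate 1 and 0.46 and 0.52 for replicate 2. Over probe sets, the deviations of replicate 1 from the group means correlated between the groups at 0.12, which with 2 pairs does not settle the pairing. With the replicate block 1919 genes, 6 member genes and 6 member probe sets were called, the added members being Dusp10 (adjusted p = 0.00706) and Spry2 (adjusted p = 0.0137). Medians of all genes moved by less than 0.1 on the log2 scale under every scaling tried. Signals near 4 lie close to background and limit what can be said of Spry4, Dusp4 in Sox9cKO and the dimmer probe set of Dusp10.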
